A study of Mus musculus with 2 samples.

Results

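The genes described here encode 10 proteins that remove or buffer reactive oxygen species: the glutathione peroxidases Gpx1 and Gpx4, the peroxiredoxins Prdx1, Prdx2 and Prdx5, the superoxide dismutases Sod1 and Sod2, the catalase gene Cat, the thioredoxin gene Txn1 and its binding partner Txnip. They were chosen by name, and all 10 were found among the 55357 features of the count matrices. Single-cell RNA sequencing had been done on cells sorted from cerebral cortex for both CD45 and CD11b, surface proteins of hematopoietic and of myeloid cells. One library came from Msn KO mice, which lack moesin, a protein that ties cortical actin to the plasma membrane, and the other came from WT mice. The mice were 8 weeks old, and the cortices of 5 to 6 animals were pooled for each genotype. How the deletion was made, and the strain, were not given in the sources used here. Each genotype rests on a single library, so no test was possible, and every interval below is an exact 95% interval that covers counting error only.

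Superoxide leaks from respiration and is also made by the phagocyte NADPH oxidase. Superoxide dismutases turn it into hydrogen peroxide, which catalase, the peroxiredoxins and the glutathione peroxidases then reduce. Thioredoxin and glutathione return the peroxiredoxins and the glutathione peroxidases to their active state, and TXNIP binds reduced thioredoxin. Phagocytes such as microglia and monocytes produce oxidants themselves during the respiratory burst.

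Cells with at least 500 genes and at most 10% mitochondrial UMIs were kept, 7573 in the Msn KO and 5577 in the WT library, with median depths of 5455 and 7178 UMIs. A unique molecular identifier, or UMI, marks 1 captured transcript. The libraries differed in ways that touch every comparison between genotypes. The median mitochondrial share was 0.503% of UMIs in Msn KO cells and 1.42% in WT cells, and 13 cell barcodes occurred in both libraries. Cells were assigned by marker genes, and a cell had to pass exactly 1 gate. The microglia gate (P2ry12 and Tmem119) held 4481 Msn KO and 4972 WT cells, or 59.2% and 89.2% of kept cells. The monocyte gate (Ace or Ly6c2) held 687 Msn KO and 55 WT cells, and the border macrophage gate (Mrc1 and Pf4) 133 Msn KO and 25 WT cells. Each gate was checked by summing 8 further markers of its class. Summed microglial markers reached 24454 CPM in the Msn KO and 23937 CPM in the WT microglia gate, against 1089 and 1400.4 CPM in the monocyte gates, while monocyte markers reached 8700.1 and 8825 CPM in the monocyte gates. The WT monocyte gate also held B cell markers at 16714 CPM, in few cells as described below. The border macrophage gate was less distinct. Its own markers summed to 4584 CPM in Msn KO and 5640 CPM in WT cells, beside microglial markers at 5147 and 3816 CPM, so in Msn KO the markers went against the name, which stands here only for the gate genes Mrc1 and Pf4. Msn itself stood at 20.5 CPM in Msn KO and 320.1 CPM in WT microglia-gate cells.

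A level is given in CPM, a gene's summed UMIs scaled to a total of 1000000 UMIs over the cells of a gate. Ratios are on the log2 scale and relative to the median log2 ratio of all measured genes, those with at least 10 CPM on at least 1 side and 20 UMIs in all. That median was -0.29 for Msn KO over WT in the microglia gate and -0.18 in the monocyte gate. Calls go by the size of this ratio, with the line at 1.5-fold either way, or 0.58 on the log2 scale. A CPM is a share of a gate's RNA, so more of a transcript and less of the others cannot be told apart.

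Gpx1 (ENSMUSG00000063856, chromosome 9, 108216102 to 108217546, GRCm39) and Gpx4 (ENSMUSG00000075706, chromosome 10, 79883000 to 79892273) are the selenoproteins among the 10. GPX1 reduces hydrogen peroxide in the cytosol and mitochondria, and GPX4 reduces lipid peroxides in membranes and thereby blocks ferroptosis. Both place selenocysteine in the active site by reading a TGA codon that would otherwise stop translation. That codon, in capitals, is codon 47 of Gpx1 (108216650 to 108216652) and codon 73 of Gpx4 (79890571 to 79890573), and each coding sequence holds 1 such codon in frame before its own stop. The coding sequence around it is printed for both, since they had the largest Msn KO over WT ratios of the 10 in the microglia and monocyte gates and the other selenoprotein genes are set beside them below.
Gpx1: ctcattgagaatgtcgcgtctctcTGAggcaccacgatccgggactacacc
Gpx4: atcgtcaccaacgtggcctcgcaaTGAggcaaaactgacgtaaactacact

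In the microglia gate, 5 of the 10 genes were higher in the Msn KO library and 0 were lower, beside 15.0% and 12.4% of the 8726 measured genes. The 5 were both glutathione peroxidases and all 3 peroxiredoxins. The superoxide dismutases, catalase, thioredoxin and Txnip stayed within 1.5-fold. The median relative log2 ratio of the 10 was 0.61, beside 0 for all measured genes by construction. Without centring on the median, 2 of the 10 remained past 1.5-fold, Gpx1 and Gpx4, beside 4.65% of measured genes higher and 30.3% lower.

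Gpx4 had 223 CPM in Msn KO and 96.0 CPM in WT microglia-gate cells, from 7721 and 5660 UMIs. The relative log2 ratio was 1.51 (1.46 to 1.56), above 99.3% of measured genes. Reads of Gpx4 can be shared with its processed copy Gpx4-ps2, which was counted at 15.0 and 9.7 CPM in the same cells. Gpx1 had 547 CPM in Msn KO and 339 CPM in WT cells, a ratio of 0.98 (0.95 to 1.01) that stood above 97.1% of measured genes. Cells were then thinned to 2000 UMIs each, which left out 343 Msn KO and 136 WT cells of lower depth and kept 4138 and 4836. A Gpx4 transcript was found in 36.2% (34.7 to 37.7) of Msn KO and 17.8% (16.8 to 18.9) of these WT cells. The share for Gpx1 was 60.3% (58.8 to 61.8) in Msn KO and 46.0% (44.6 to 47.4) in WT cells. Unthinned, the shares were 69.2% and 55.7% for Gpx4 and 85.2% and 81.1% for Gpx1, at median depths of 5581 UMIs in the Msn KO and 7212.5 UMIs in the WT gate. No cell type in these gates is known to lack these transcripts, so the share that free RNA gives was not measured. The difference was spread over many cells, since the 10 cells with the most Gpx4 held 1.92% of its UMIs in the Msn KO and 2.01% in the WT gate.

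The peroxiredoxins reduce peroxides with a reactive cysteine. Prdx1 (ENSMUSG00000028691, chromosome 4, 116532123 to 116558398) and Prdx2 (ENSMUSG00000005161, chromosome 8, 85693354 to 85702350) encode cytosolic enzymes, and PRDX2 is abundant in red blood cells. Prdx5 (ENSMUSG00000024953, chromosome 19, 6884065 to 6887792) encodes an enzyme of mitochondria, peroxisomes and cytosol. Prdx1 stood at 237 CPM in Msn KO and 168 CPM in WT microglia-gate cells (0.79, 0.75 to 0.84), and Prdx5 at 230.4 and 160 CPM (0.82, 0.78 to 0.86). Both lost the call on the plain CPM scale, at 0.50 and 0.53. Prdx2 had 138 CPM in Msn KO and 107 CPM in WT cells (0.67, 0.61 to 0.72), which lies near the 1.5-fold line. In 4 of its 14 alternative settings Prdx2 was under the line. Hemoglobin and other erythroid markers, 5 genes in all, summed to 464 CPM in the Msn KO and 89.5 CPM in the WT microglia gate. How that RNA was spread over the cells was not counted. With cells of 5 or more hemoglobin UMIs left out, 4478 of 4481 Msn KO and 4971 of 4972 WT cells remained, and the Prdx2 ratio was 0.67.

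The remaining 5 genes did not pass 1.5-fold in the microglia gate. Sod1 (ENSMUSG00000022982, chromosome 16, 90017408 to 90027657), the cytosolic copper-zinc superoxide dismutase gene, had 71.3 CPM in Msn KO and 78.8 CPM in WT cells. Its relative log2 ratio was 0.15 (0.08 to 0.22) and its plain CPM ratio -0.14, so its direction depended on the scaling. Sod2 (ENSMUSG00000006818, chromosome 17, 13224095 to 13259591), the mitochondrial manganese enzyme gene, had 52.3 and 43.8 CPM (0.55, 0.46 to 0.64), just inside the line. Cat (ENSMUSG00000027187, chromosome 2, 103284194 to 103316185), which encodes the peroxisomal catalase, had 32.3 CPM in Msn KO and 41.2 CPM in WT cells (-0.06, -0.16 to 0.05). Txn1 (ENSMUSG00000028367, chromosome 4, 57934208 to 57956424), the cytosolic thioredoxin gene, had 66.8 and 62.9 CPM (0.38, 0.30 to 0.46). Txnip had 1342 CPM in Msn KO and 1266 CPM in WT cells, and its ratio was 0.38 (0.36 to 0.39). The superoxide dismutases and catalase thus stood closer to the median of all genes than the glutathione peroxidases did. That order takes no account of transcript length, which is described below.

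**Figure D1:**
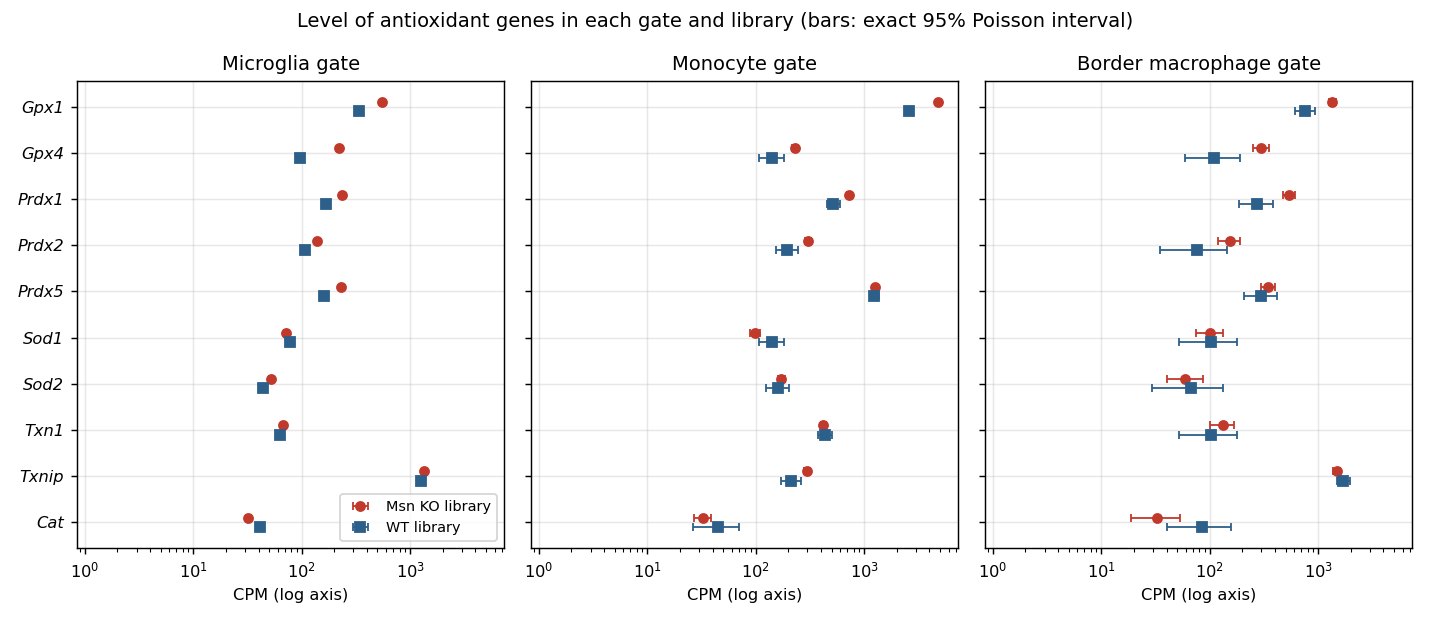
Level of each gene in CPM (log axis) in the microglia, monocyte and border macrophage gates, with Msn KO as red circles above WT as blue squares and exact 95% Poisson intervals as bars. Gpx1 stands at 547 CPM in Msn KO and 339 CPM in WT microglia-gate cells and at 4829 and 2574 CPM in the monocyte gate, while Txnip has 1342 and 1266 CPM in the microglia gate and 296 and 212 CPM in the monocyte gate.

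Txnip (ENSMUSG00000038393, chromosome 3, 96465267 to 96469201) encodes an arrestin-like protein that binds thioredoxin and limits glucose uptake, and its transcription follows glucose through the factor MondoA and its relative ChREBP. Its promoter holds a carbohydrate response element, 2 boxes CACGNG with any 5 bases between them, here in capitals, starting 85 bases before the transcription start (RefSeq, GRCm38.p6, chr3:96557860-96557900, plus strand). It is printed because Txnip alone of the 10 was lower in the monocyte than in the microglia gate.
Txnip: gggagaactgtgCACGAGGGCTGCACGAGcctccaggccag
Searched on both strands, from 250 bases before to 50 bases after the start, this motif lay in 16 of 32851 promoter windows, or 0.0487%, and of the 10 genes in Txnip alone. The core of the antioxidant response element bound by NRF2, TGACNNNGC, lay in 12.4% of all windows and in 2 of the 13 windows of the 10 genes, those of Prdx1 and Sod1. These are letter matches and not measured binding sites.

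Txnip took a large part of the counts in the microglia and border macrophage gates. It made up 45.6% of the UMIs of the 10 genes in Msn KO and 53.6% in WT microglia-gate cells, and 32.9% and 47.7% in the border macrophage gates. In the monocyte gates its part was 3.54% and 3.74%, and there Gpx1 made up 57.8% of the UMIs in Msn KO and 45.4% in WT cells. The summed level of the 10 genes was 2939.8 CPM in the Msn KO and 2362 CPM in the WT microglia gate, against 8360.2 and 5673 CPM in the monocyte gates. These are shares of UMIs, counted at transcript ends and not divided by transcript length. The lncRNA gene Gm15441 lies on the strand opposite Txnip and had 0.664 CPM in Msn KO and 1.32 CPM in WT microglia-gate cells.

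The Msn KO over WT ratio in the microglia gate moved with transcript length across all genes. Among 515 measured genes with a canonical transcript under 1000 bases, 56.7% were higher in the Msn KO library and the median relative log2 ratio was 0.65. Among 2290 genes of 5000 bases or more, 2.18% were higher, 24.4% were lower and the median was -0.38. Gpx4 has a canonical transcript of 959 bases, and 4.47% of genes in its length range (under 1000 bases) had a larger ratio. Gpx1 has 1072 bases, with 5.99% of genes from 1000 to 2000 bases above it, and Prdx5, in the same range, had 12.9% above it. For Prdx1 and Prdx2, of 2000 to 3000 bases, the share was 5.14% and 9.99%. Sod1 and Sod2 have canonical transcripts of 5315 and 5983 bases, where the median ratio is negative, and 11.2% and 2.58% of genes of that range had larger ratios. Txn1, Txnip and Cat had 71.7%, 31.8% and 73.7% of genes of like length above them. Relative to genes of like length, then, Sod2 stood at least as far up as Gpx4 and the peroxiredoxins, while Txn1 and Cat stood in the lower part. The part of transcript length in the ratios of single genes was not tested further.

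**Figure D2:**
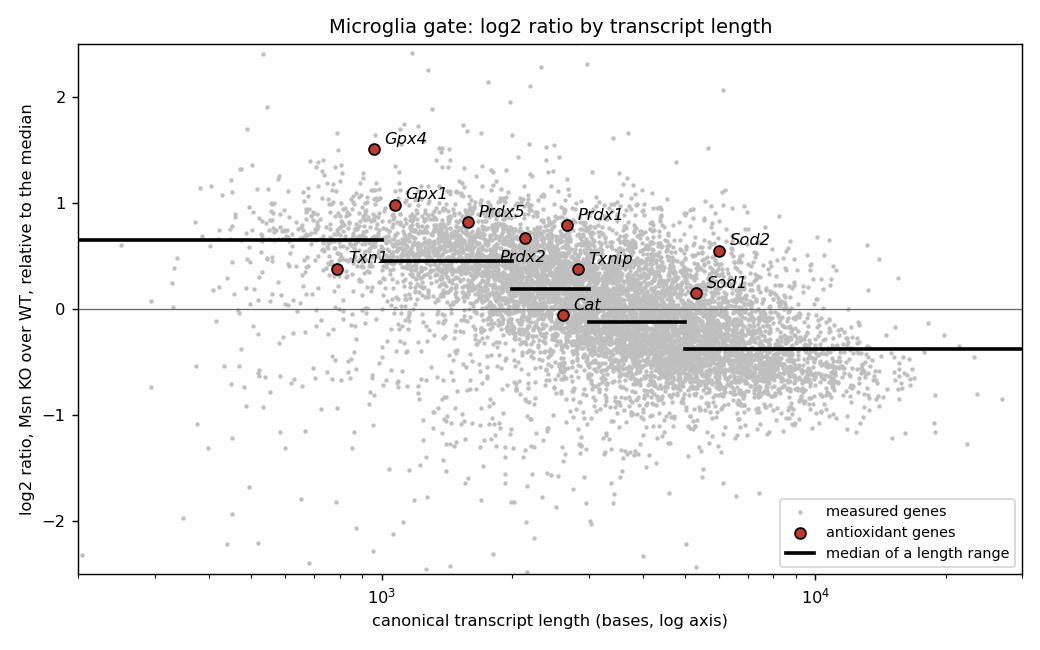
Relative log2 ratio of Msn KO over WT in the microglia gate against canonical transcript length in bases (log axis) for 8715 measured genes (grey), of which 42 lie outside the drawn range, with the 10 antioxidant genes in red and black bars at the median of each length range. The medians fall with length, at 0.65 under 1000 bases and -0.38 from 5000 bases, and Sod2, Gpx4, Prdx1 and Gpx1 lie above most genes of their length.

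The ratios were also read within ranges of cell depth, since Msn KO cells were shallower. In cells under 3000, from 3000 to 6000, from 6000 to 12000 and from 12000 UMIs, the Gpx4 ratio was 1.40, 1.39, 1.55 and 1.53. The Gpx1 ratio was 1.09, 1.03, 1.05 and 0.95 in the same order, and that of Prdx1 0.71, 0.78, 0.73 and 0.78. Prdx5 had 0.64, 0.80, 0.82 and 0.86. These 4 genes were past 1.5-fold at every depth. Prdx2 was not, with -0.39 in the shallowest cells, from 97 Msn KO and 70 WT UMIs, and 0.51, 0.62 and 0.79 in deeper cells. Sod1 lay at -0.28 in the shallowest range and between 0.10 and 0.22 in the others.

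**Figure D3:**
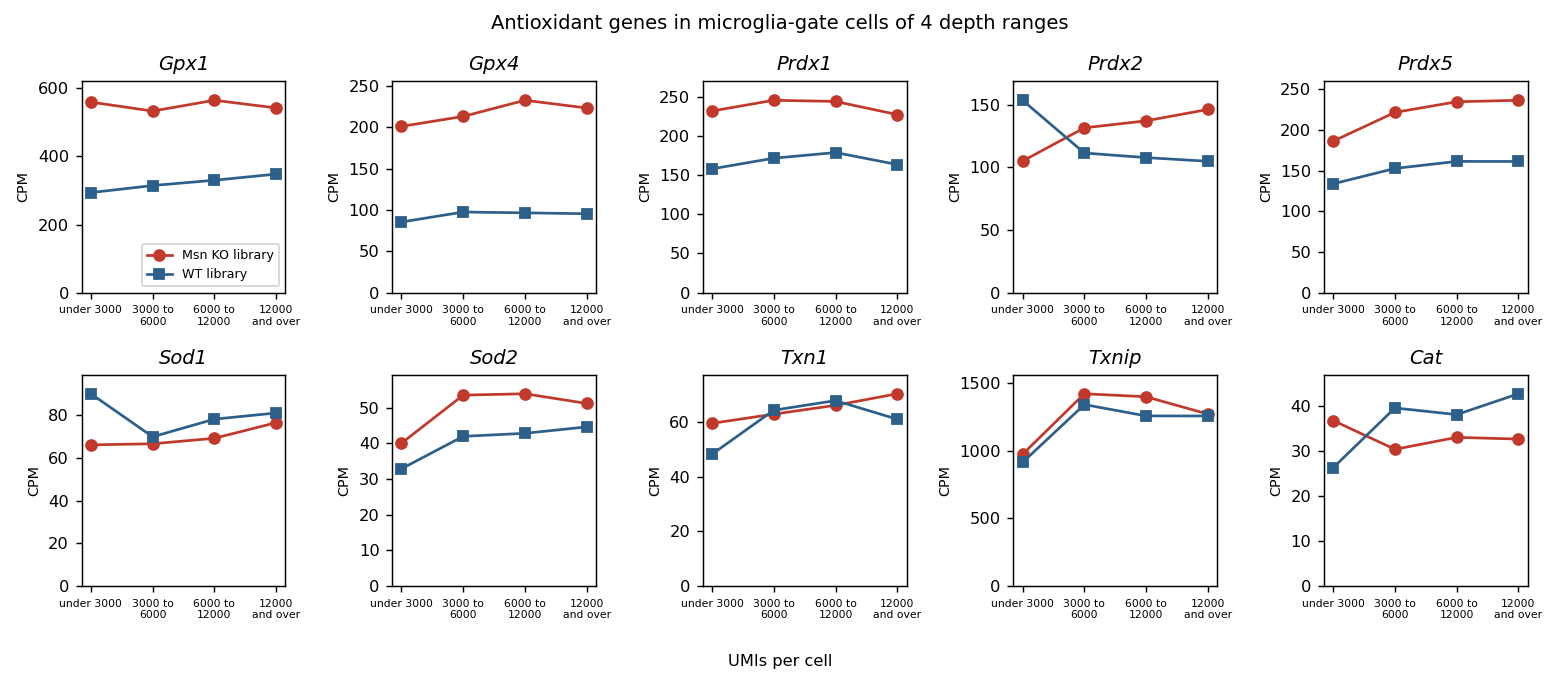
CPM of each gene in microglia-gate cells of 4 depth ranges (UMIs per cell), with Msn KO as red circles and WT as blue squares. The Msn KO line of Gpx1, Gpx4, Prdx1 and Prdx5 lies above the WT line in every range, the Msn KO line of Sod1 lies below, and the lines of Prdx2, Txn1 and Cat cross.

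Markers of other cells also differed between the microglia gates. The 5 natural killer cell markers summed to 91.7 CPM in Msn KO and 0.102 CPM in WT cells, with Ncr1, Nkg7 and Klre1 at 0 in WT. The 4 neutrophil markers summed to 182 and 14.8 CPM, and the 8 monocyte markers to 323 and 239 CPM. Plac8, a monocyte gene, had 24.6 CPM in Msn KO and 3.77 CPM in WT microglia-gate cells, beside 3784 and 4369 CPM in the monocyte gates. The part of such RNA in the ratios was not tested.

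Further genes of the same system were read from a list of 65 in 8 groups. In the microglia gate 53 were measured, of which 24 were higher in Msn KO, 1 was lower and 28 lay within 1.5-fold, with a median of 0.52. The shares over all measured genes were 15.0% higher and 12.4% lower. On the plain CPM scale 8 were higher and 2 lower, beside 4.65% and 30.3% of all measured genes. All 6 genes of the group named selenoproteins were higher, 2 of them also on the plain CPM scale. Selenoprotein genes filed in other groups of the list, such as Msrb1, Txnrd1 and Txnrd2, were not counted with them. Among all measured genes under 1000 bases, the range of Selenow and Selenom, 56.7% were higher. Selenow, a small thioredoxin-like selenoprotein gene, had 48.8 CPM in Msn KO and 24.9 CPM in WT cells (1.26), and Selenom, which encodes a selenoprotein of the endoplasmic reticulum, 13.3 and 6.72 CPM (1.28). Msrb1, a selenoprotein that repairs oxidized methionine, was the highest of the list at 41.2 CPM in Msn KO and 16.9 CPM in WT cells (1.58, 1.46 to 1.70). These 3 transcripts are short: 7.38% of genes in the range of Selenow, 7.18% in that of Selenom and 1.09% in that of Msrb1 had larger ratios. Of 5 genes of selenocysteine synthesis and insertion, 1 was higher and 1 lower, counts near the shares over all genes. The lower one was Sepsecs, which makes the selenocysteine-loaded tRNA, at 4.7 CPM in Msn KO and 11.1 CPM in WT cells (-0.95, -1.20 to -0.70).

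Of the measured glutathione enzymes, 5 of 7 were higher. Gstp1, a glutathione transferase gene, had 61.5 CPM in Msn KO and 32.0 CPM in WT cells (1.24), and Mgst3, a microsomal family member, 25.9 and 14.7 CPM (1.11). In their length ranges, 7.77% of genes had a larger ratio than Gstp1 and 3.28% a larger ratio than Mgst3. In the thioredoxin and peroxiredoxin group 4 of 9 were higher, led by the mitochondrial thioredoxin gene Txn2 at 62.6 CPM in Msn KO and 38.8 CPM in WT cells (0.98). The NADPH oxidase is the source of superoxide in phagocytes, and 3 of its 6 listed genes were higher. Cybb, its catalytic subunit, had 15.4 CPM in Msn KO and 7.23 CPM in WT cells (1.39, 1.20 to 1.57), with 0.0756% of genes of its length above it. Cyba, the membrane partner of Cybb, had 1369.95 and 899 CPM (0.90), with 21.4% of genes in its length range above it. The NRF2 axis, which holds the transcription factor of antioxidant genes, its inhibitor and its best-known targets, had 2 of 12 measured genes higher and 0 lower, Gss and Gsr, with a median of 0.14. That is close to the 15.0% of all measured genes, and on the plain CPM scale 0 were higher and 1 was lower. None of the 4 genes listed with Txnip (Arrdc4, Mlxip, Mlx and Nlrp3) passed 1.5-fold. Of 4 other measured genes 3 were higher, Msrb1, Park7 and Ccs, and Sod3 had no UMI in either microglia gate.

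In the monocyte gate, 5 of the 10 genes were higher in Msn KO and 0 lower, beside 19.7% and 21.6% of measured genes. The WT side rests on 55 cells. Gpx1 had 4829 CPM in Msn KO and 2574 CPM in WT cells, from 18625 and 1042 UMIs (1.08, 0.99 to 1.18). Gpx4 had 229 and 141 CPM (0.88, 0.49 to 1.29) and Prdx2 303 and 195 CPM (0.81, 0.48 to 1.16). Prdx1 stood at 718 CPM in Msn KO and 521 CPM in WT cells (0.64, 0.44 to 0.85), and Txnip at 296 and 212 CPM (0.66, 0.34 to 0.99). Of these 5, Gpx1 stayed past the line in all 15 alternative settings, and the call of each of the others ended in at least 1. The other 5 lay within 1.5-fold. Prdx5 had 1262 CPM in Msn KO and 1245 CPM in WT cells (0.20), Sod2 172 and 161 CPM (0.27), and Txn1 420 and 440 CPM, at 0.11 relative to the median and -0.07 on the plain CPM scale. Sod1 had 99.0 and 141 CPM (-0.33), and Cat 32.4 and 44.5 CPM (-0.28). The gates differed in subset make-up, since cells with Ly6c2 and without Ace gave 1046747 of 3856726 UMIs in Msn KO and 214280 of 404876 UMIs in WT. Gpx1 had 5503 CPM in Msn KO and 3087 CPM in WT among Ace+ cells, and 3047 and 2081 CPM among Ly6c2+ cells. Gpx4 had 171 and 47.6 CPM among Ace+ cells, from 310 and 6 UMIs, and 374 and 196 CPM among Ly6c2+ cells. Txnip was nearly level among Ace+ cells, at 262 and 246 CPM from 474 and 31 UMIs. Among Ly6c2+ cells it had 373 and 196 CPM. Prdx1 and Prdx2 are not given by subset here. Gpx1 and Gpx4 were thus higher in Msn KO in both gates and in both subsets, while Prdx5 passed the line in the microglia gate and not in the monocyte gate, a difference that was not tested. Of 55 measured genes of the longer list, 16 were higher and 7 lower, with a median of 0.26.

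The monocyte gates held some RNA of other cells. B cell markers summed to 212 CPM in Msn KO and 16714 CPM in WT cells, natural killer cell markers to 914 and 2.47 CPM, neutrophil markers to 2078 and 731 CPM, and choroid plexus markers to 586 and 0 CPM. Cells with 10 or more UMIs of the B, T or natural killer cell, neutrophil or choroid plexus markers numbered 35 in the Msn KO and 2 in the WT gate. Without them 652 Msn KO and 53 WT cells remained, B cell markers held 625 and 57 UMIs, of 819 and 6767 before, and again 5 genes were higher and 0 lower. The Gpx1 ratio was then 1.13 and that of Gpx4 0.85. A stricter gate, with no UMI of 7 genes of microglia, macrophages and lymphocytes, left 331 Msn KO and 18 WT cells. There 2 genes were higher, Cat was lower (-0.95) and the Gpx4 ratio was 0.30. Shares over all measured genes were not counted for either of these narrower gates.

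In the border macrophage gate, 4 of the 10 genes were higher in Msn KO and 1 lower, beside 21.4% and 25.0% of measured genes. The WT side rests on 25 cells and 117910 UMIs. Gpx1 had 1350.1 CPM in Msn KO and 755 CPM in WT cells (0.83, 0.51 to 1.17), Gpx4 299 and 110.3 CPM (1.43, 0.61 to 2.38), and Prdx1 540.04 and 271 CPM (0.99, 0.45 to 1.56). The Gpx1 ratio stood above 86.4% and the Gpx4 ratio above 95.1% of measured genes in this gate. Prdx2 was also past the line (0.99), with an interval that reached -0.01 from 9 WT UMIs. Cat was lower, at 33.0 CPM in Msn KO and 84.8 CPM in WT cells (-1.37, -2.60 to -0.07), from 16 and 10 UMIs. Prdx5, Sod1, Sod2, Txn1 and Txnip lay within 1.5-fold, with Txnip at 1476 and 1705 CPM (-0.21, -0.44 to 0.02). Natural killer cell markers summed to 251 CPM in Msn KO and 0 CPM in WT cells of this gate, neutrophil markers to 103 and 0 CPM, and microglial markers to 5147 and 3816 CPM, and their part in the ratios was not tested. Of 38 measured genes of the longer list, 15 were higher and 5 lower, with a median of 0.26. Cells that passed no gate had 6 of the 10 genes higher in Msn KO and 1 lower, beside 26.7% and 22.1% of measured genes, and are left out of the comparisons here as a mixture.

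**Figure D4:**
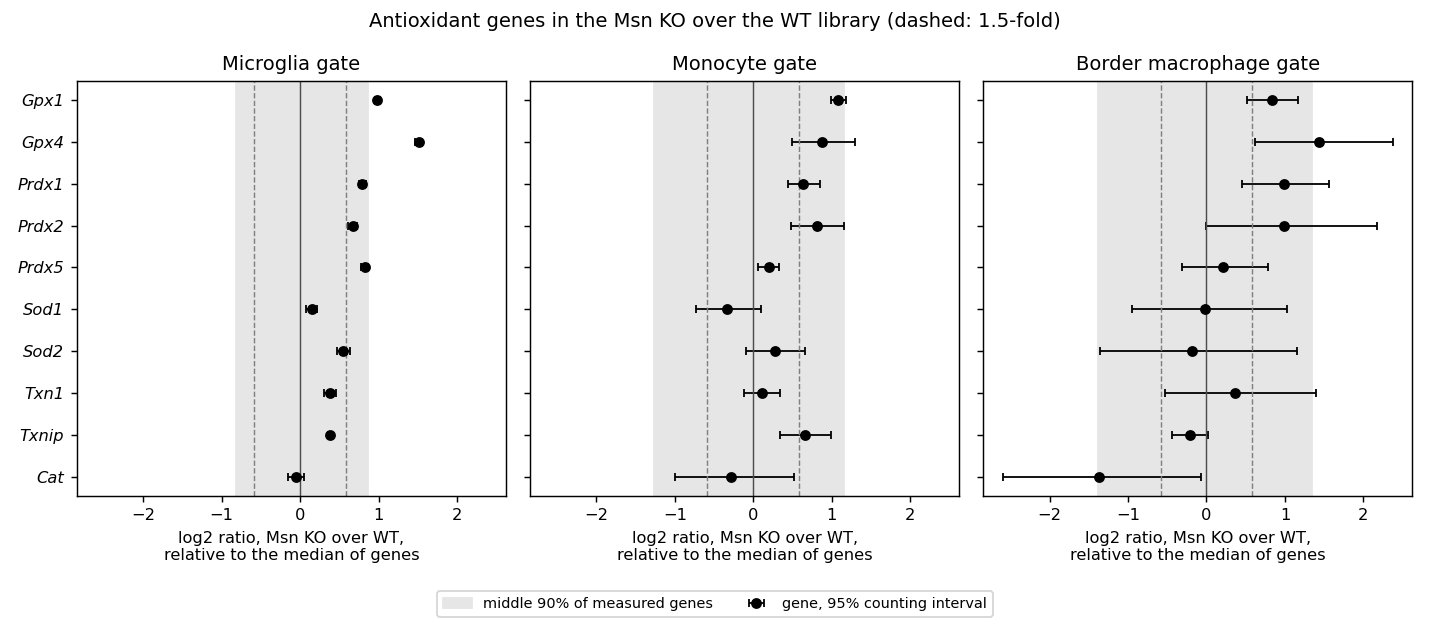
Log2 ratio of Msn KO over WT relative to the median gene in 3 gates, with 95% counting intervals as bars, dashed lines at 1.5-fold and grey bands over the middle 90% of measured genes. Gpx1 and Gpx4 lie right of the dashed line in every gate, and the intervals widen in the gates with 55 and 25 WT cells. Both lie inside the grey band in the monocyte gate, as does Gpx1 in the border macrophage gate.

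Between cell classes the ratios of Gpx1, Prdx5 and Txn1 were larger than those between the libraries. Classes were compared inside each library, and a gene counted when it passed 1.5-fold the same way in both. In the monocyte over the microglia gate, 7 of the 10 genes were higher and 1 was lower, beside 25.9% and 23.6% of genes measured in both libraries. The 7 were Gpx1, Prdx1, Prdx2, Prdx5, Sod1, Sod2 and Txn1, and the lower gene was Txnip. The median of all genes lay at -0.36 in the Msn KO and -0.45 in the WT library, and without centring 6 were higher, since Sod1 left the call. The counts were again 7 and 1 without the cells rich in markers of other types. Shares over all measured genes were not counted for either of these settings.

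Gpx1 had 4829 CPM in the monocyte and 547 CPM in the microglia gate of the Msn KO library, and 2574 and 339 CPM in the WT library. The relative log2 ratios were 3.50 (3.47 to 3.53) and 3.37 (3.28 to 3.46). Prdx5 had 1262 and 230.4 CPM in Msn KO (2.81) and 1245 and 160 CPM in WT (3.41). Txn1 showed the same order, at 420 and 66.8 CPM in Msn KO (3.01) and 440 and 62.9 CPM in WT (3.26). Sod2 was higher by 2.07 and 2.32, Prdx1 by 1.96 and 2.08, Prdx2 by 1.49 and 1.32, and Sod1 by 0.84 and 1.29, in Msn KO and WT. Txnip had 296 CPM in the monocyte and 1342 CPM in the microglia gate of the Msn KO library (-1.82, -1.91 to -1.73), and 212 and 1266 CPM in the WT library (-2.13, -2.45 to -1.82). Gpx4 was at 0.40 in Msn KO and 1.00 in WT, and Cat at 0.37 and 0.56, so neither counted in both libraries. Thinned to 2000 UMIs, with 42 Msn KO and 2 WT monocyte-gate cells of lower depth left out, 96.1% of monocyte-gate and 60.3% of microglia-gate cells of the Msn KO library held a Gpx1 transcript, and 96.2% and 46.0% in the WT library. For Txnip the shares were 42.3% and 81.8% in Msn KO, and 22.6% and 84.0% in WT. Unthinned, they were 95.5% and 85.2% for Gpx1 and 71.2% and 92.3% for Txnip in Msn KO.

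**Figure D5:**
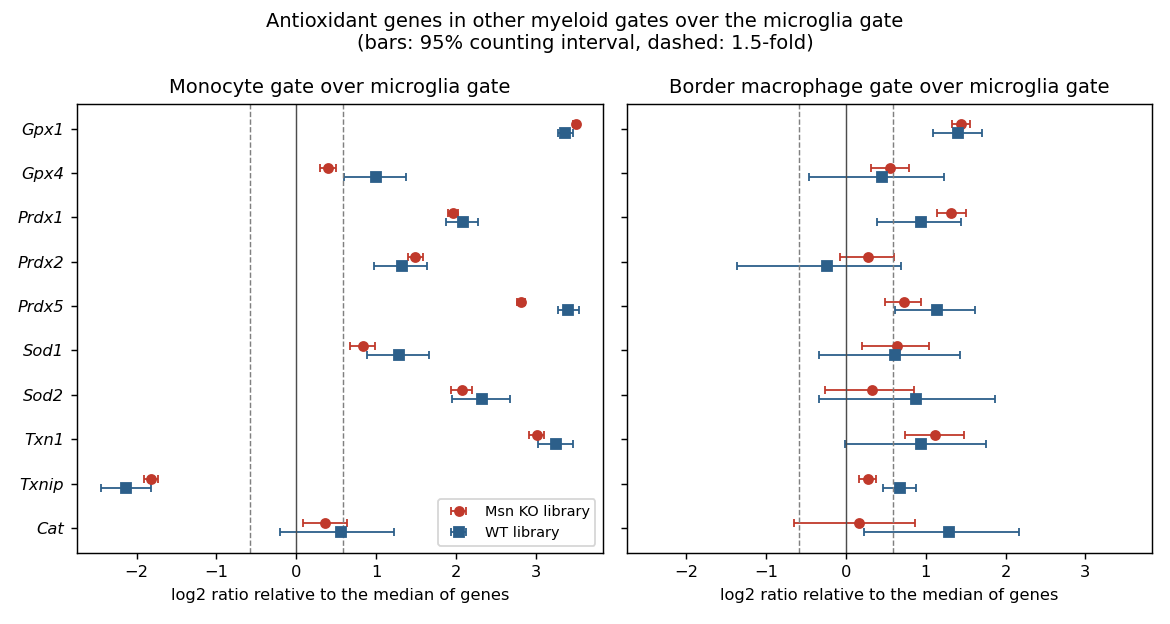
Log2 ratio of the monocyte gate (left) and the border macrophage gate (right) over the microglia gate of the same library, relative to the median gene, with Msn KO as red circles above WT as blue squares, 95% counting intervals as bars and dashed lines at 1.5-fold. In the monocyte gate Gpx1, Prdx5 and Txn1 reach 2.81 or more in both libraries and Txnip lies at -1.82 in Msn KO and -2.13 in WT; the right panel has smaller ratios and wider WT intervals.

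The longer list gave 26 genes higher and 9 lower in the monocyte over the microglia gate of both libraries, of 54 measured in both, beside 25.9% and 23.6% of all genes. Among glutathione enzymes 6 of 9 were higher and 0 lower, and of the NADPH oxidase genes 5 of 6 were higher. The NRF2 axis had 7 of 13 higher and 3 lower, the lower count near the share over all genes. Of the selenoprotein genes 2 of 6 were higher and 2 lower, both near those shares.

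In the border macrophage over the microglia gate, 5 of the 10 genes were higher in both libraries and 0 lower, beside 12.6% and 13.2% of genes. The 5 were Gpx1, Prdx1, Prdx5, Sod1 and Txn1. Gpx1 had 1350.1 CPM in the border macrophage and 547 CPM in the microglia gate of the Msn KO library (1.44, 1.32 to 1.55), and 755 and 339 CPM in the WT library (1.40, 1.09 to 1.70). Prdx1 was at 1.32 in Msn KO and 0.94 in WT, Txn1 at 1.12 and 0.94, and Prdx5 at 0.72 and 1.14. The intervals of Sod1 and Txn1 in WT, from 12 UMIs each, included 0. Without centring 4 were higher, a setting for which the share over all genes was not counted. Txnip lay at 0.27 in Msn KO and 0.68 in WT, so the lower Txnip of the monocyte gate was not seen in this gate. The border macrophage gates still held microglial markers at 5147 CPM in Msn KO and 3816 CPM in WT cells. Of 52 genes of the longer list measured in both libraries, 11 were higher and 5 lower.

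Inside the monocyte gate of the Msn KO library, 388 cells had Ace without Ly6c2, the pattern of patrolling monocytes, and 146 had Ly6c2 without Ace, that of classical ones. In Ace+ over Ly6c2+ cells, 2 of the 10 genes were higher and 1 lower, beside 19.6% and 20% of measured genes. Both counts are near or below those shares. Gpx1 had 5503 CPM in Ace+ and 3047 CPM in Ly6c2+ cells (0.82, 0.76 to 0.88), and Cat 40.9 and 21.0 CPM (0.92, 0.22 to 1.68). Gpx4 ran the other way, at 171 CPM in Ace+ and 374 CPM in Ly6c2+ cells (-1.16, -1.38 to -0.95). Txn1 had 371 and 539 CPM (-0.58) and Txnip 262 and 373 CPM (-0.54), both just inside the line. In the WT library, with 24 and 23 cells, Gpx1 had 3087 CPM in Ace+ and 2081 CPM in Ly6c2+ cells and Gpx4 47.6 and 196 CPM, the same order, from 6 and 42 UMIs for Gpx4. B cell markers summed to 143 CPM in Ace+ and 31435.5 CPM in Ly6c2+ cells of the WT library, and neutrophil markers to 0 and 1377 CPM. The part of that RNA in the WT values was not tested. Gpx1 and Gpx4 thus had opposite orders between these Ace+ and Ly6c2+ cells, which also differed in markers of other cells. Natural killer cell markers stood at 98.3 CPM in Ace+ and 3024 CPM in Ly6c2+ cells of the Msn KO library, and choroid plexus markers at 1229 and 18.2 CPM. Neutrophil markers stood at 21.0 CPM in Ace+ and 7597 CPM in Ly6c2+ cells of that library, beside monocyte markers at 7758 and 8268 CPM. Without the cells rich in such markers, Gpx1 was at 0.60, Cat at 0.65 and Gpx4 at -1.23. In the stricter monocyte gate the call of Gpx1 ended. With cells counted in each gate they passed, the calls of Gpx1 and Gpx4 both ended, at 0.44 and -0.45. Of 54 measured genes of the longer list, 8 were higher and 20 lower, and 7 of the 9 glutathione enzymes were among the lower.

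Likeness among the 10 genes was read from log2 CPM over 8 profiles, the microglia, Ace+ monocyte, Ly6c2+ monocyte and border macrophage gates of both libraries. Profiles of a library share its depth and free RNA, so Pearson's r serves only as a description. Prdx5 and Txn1 were most alike (r = 0.99), followed by Sod2 with Prdx5 (r = 0.96) and Gpx1 with Prdx1 (r = 0.96). Txnip was the least alike gene for 7 of the other 9, down to r = -0.93 with Sod2. Gpx4 followed none closely, with Prdx2 as its nearest (r = 0.46), and Gpx4 and Cat were opposed (r = -0.86). Some profiles of these genes rest on few UMIs. Gpx4 had 6 and Cat 10 UMIs in WT Ace+ cells, and 13 and 10 in the WT border macrophage gate. Over the 8 profiles the highest level was 16.2 times the lowest for Gpx1 and 2.1 times for Sod1, the widest and the narrowest range of the 10.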

How the data were processed

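Cells sorted for CD45 and CD11b from pooled cortices were profiled with the 10x 3′ v2 kit, 1 library per genotype. The deposited matrices hold UMI counts per gene and cell, made by the authors with Cell Ranger on GRCm39; the file headers give version 7.0.0 and the labels' protocols 6.0. Seurat is named in the labels for filtering at 500 genes, but 1463 Msn KO and 207 WT barcodes of the deposited counts lay below it. Whether intronic reads were counted is not given in the sources used here. Totals were 67575835 UMIs in the Msn KO and 68576464 in the WT library. Kept cells passing exactly 1 marker gate were summed. Cells passing several gates, 1232 Msn KO and 303 WT with median depths of 14521 and 21462 UMIs, were left out, and no doublet caller was run. UMI sums gave CPM with exact Poisson intervals, log2 ratios with exact conditional binomial intervals, and shares with Clopper-Pearson intervals (Python 3.11.15, NumPy 2.4.6, SciPy 1.17.1, pandas 2.3.3). The procedure was tested on simulated data. A gene was called by size, at 1.5-fold. All 10 genes and Msn are named, of the longer list up to 8 genes each way with the largest ratio in the microglia gate and others where a group holds few, and for each gene its most alike. Lengths and positions come from GENCODE vM39, which matched 98.9% of features. Overlapping genes lay on opposite strands. The genes, lists and gates were chosen with earlier results of these data known. Alternatives varied the cell filters, gates, depth, scaling, weighting and thresholds. The 2 libraries hold separate animals, but 1 library per genotype leaves the spread between animals unmeasured. No protein sequences were used.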

Additional observations from a re-analysis of the deposited data

Results flagged for a closer look

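Cells that passed no gate, 1040 in the Msn KO and 222 in the WT library, were left out of the comparisons above, and 6 of the 10 genes were higher there in Msn KO and 1 lower. Of all measured genes 26.7% were higher and 22.1% lower, and the middle 90% of their ratios reached -1.24 and 1.76, so a ratio of 1.5-fold was common there. Their median depths were 1001 and 1283.5 UMIs. The relative log2 ratio of Gpx1 was 2.25, at 1360 CPM in Msn KO and 327 CPM in WT cells. Gpx4 followed at 1.35 (230.3 and 103 CPM) and Prdx5 at 1.14 (378 and 196 CPM). Sod2 was at 0.73, Prdx2 at 0.72 and Txn1 at 0.68. Prdx1 was lower in Msn KO, at 345 CPM against 675 CPM in WT cells (-0.77). The make-up of these cells differed between the libraries. The hemoglobin gene Hbb-bs had 2507 CPM in Msn KO and 0 CPM in WT cells, the choroid plexus gene Ttr 1855 and 0 CPM, the monocyte gene Plac8 533 and 33.5 CPM, and the microglial gene P2ry12 344 and 678 CPM. Their part in the ratios was not tested.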

How the results depend on the processing

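No paired analysis was possible because each genotype has 1 library, and no replicate could be left out. Cell class names in this section stand only for the cells of a gate. Gpx1 and Gpx4 were past 1.5-fold for Msn KO over WT in all 14 alternative settings of the microglia gate comparison. These settings include all kept cells without a gate, a mixture of cell types that gave the highest Gpx1 ratio, 1.77. Without centring, 2 of the 10 genes and 8 of the longer list were higher there and 2 of the list lower, and 3 of the 10 were higher in the monocyte gate. At 2-fold, 1 of the 10 was higher in each of the microglia, monocyte and border macrophage gates, 6 of the list higher and 0 lower, 1 gene higher in border macrophages over microglia, and 0 in Ace+ over Ly6c2+ monocytes. At 30 CPM or more, 13 of the list were higher and 0 lower, and 2 genes lower in Ace+ monocytes. Counting cells in each gate they passed gave 4 genes higher and 0 lower in monocytes over microglia. The same setting gave 0 higher in border macrophages over microglia and 0 higher in Ace+ monocytes. For the Msn KO over the WT border macrophage gate it gave 7 higher and 0 lower. That gate then held 866 Msn KO and 225 WT cells. Of these, 535 and 185 also passed the microglia gate but not the monocyte gate. Thinning gave 1 lower in Msn KO monocytes, 0 lower in border macrophages, 1 higher and 3 lower in Ace+ monocytes, and turned Sod1 in WT border macrophages over microglia to -1.45. Cells of 4000 to 10000 UMIs gave 3 higher in border macrophages over microglia and 2 lower in Ace+ monocytes, and leaving out cells over 15000 UMIs also gave 2 lower there. The mean of per-cell CPM gave 3 higher in Msn KO monocytes and 3 lower in Ace+ ones. The strict monocyte gate gave 2 higher and 1 lower in Msn KO, and 1 higher and 2 lower in Ace+ monocytes. At 2 UMIs per gate gene 2 were lower in Msn KO border macrophages and 2 in Ace+ monocytes. The causes were not tested. Apart from the microglia gate without centring, shares over all measured genes were not counted under these settings. Whether these counts exceed such shares is therefore not known. Of single ratios, 910 of 1130 stayed within their counting interval. The gate without cells rich in other markers was chosen after seeing the data. Precision is limited by the 55 and 25 WT cells of the smaller gates.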
